A study of Rattus norvegicus with 10 samples.

Results

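The mRNAs of the 9 AMPA and kainate receptor subunits, Gria1 to Gria4 and Grik1 to Grik5, were followed in the hippocampus of epileptic and sham operated rats. The genes were taken by symbol from the mRNA count matrix, where they held 16 of 32041 transcript rows, and each gene was represented by its row with the highest mean count. All 16 rows passed the filter on low counts that left 22447 rows for testing.

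All 10 animals were male Sprague-Dawley rats with a stimulating electrode in the left lateral amygdala, and each library came from 1 rat. Rats 6 to 10 (stimulated) received trains of 400 µA pulses at 60 Hz for 30 min, which evoked status epilepticus, a prolonged seizure that was then stopped with diazepam at 20 mg/kg. The study's methods state that they later had spontaneous seizures. Rats 1 to 5 (sham operated) were age-matched and carried electrodes without current, and no diazepam is described for them, so the current, the seizures and the drug cannot be told apart. Tissue was taken 3 months later. The labels call it dorsal hippocampus, while the protocol describes a piece of the left hippocampus with CA3 and dentate gyrus. Poly-A RNA was sequenced over 36 cycles.

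AMPA and kainate receptors are the glutamate-gated ion channels that carry fast excitation between neurons. AMPA receptors are tetramers of Gria subunits and give most of the current at hippocampal synapses, and edited Gria2 makes them nearly impermeable to calcium. Kainate receptors combine the low-affinity subunits Grik1 to Grik3 with the high-affinity subunits Grik4 and Grik5, which need a low-affinity partner to form a working channel, and they are known for their role at the mossy fiber synapse between dentate granule cells and CA3. Levels below are CPM, the aligned counts of a row brought to a common library size by trimmed mean factors. They were not divided by transcript length and are therefore compared between rats and not between genes.

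None of the 9 subunits passed the test between the groups after correction. In edgeR's quasi-likelihood test with Benjamini-Hochberg adjustment over all 22447 rows, the adjusted p of the subunits ran from 0.390 for Gria3 to 0.960 for Grik4. The background gives the same picture, since 0 rows (0.0%) passed an adjusted p of 0.05, with a lowest value of 0.376. Other tests on the same counts called 119 rows (edgeR's likelihood ratio test), 90 rows (edgeR's exact test), 33 rows (DESeq2) and 0 rows (limma-voom), with 0 subunits among them in each case.

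At an unadjusted p under 0.05, 2 of 9 subunits (22.2%) stood out, Gria3 with higher counts and Grik3 with lower counts after stimulation. Across all rows 2214 (9.86%) reached that level, 1505 higher (6.7%) and 709 lower (3.16%), so a pair among 9 genes is a small number to read against this background. Scaling by library size alone changed that split to 1725 higher and 477 lower. The fold change was above 0 for 5 subunits and below 0 for 4, with a median log2 fold change of 0.02 against 0.01 over all rows, where 52.2% lay above 0. In 0 of 9 subunits were the CPM values of the groups fully separated, which held for 290 rows (1.29%) overall. At an unadjusted p under 0.001 in edgeR's quasi-likelihood test there were 39 rows (0.174%) and 0 of the rows representing the subunits, the lowest p being that of Gria3.

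**Figure D1:**
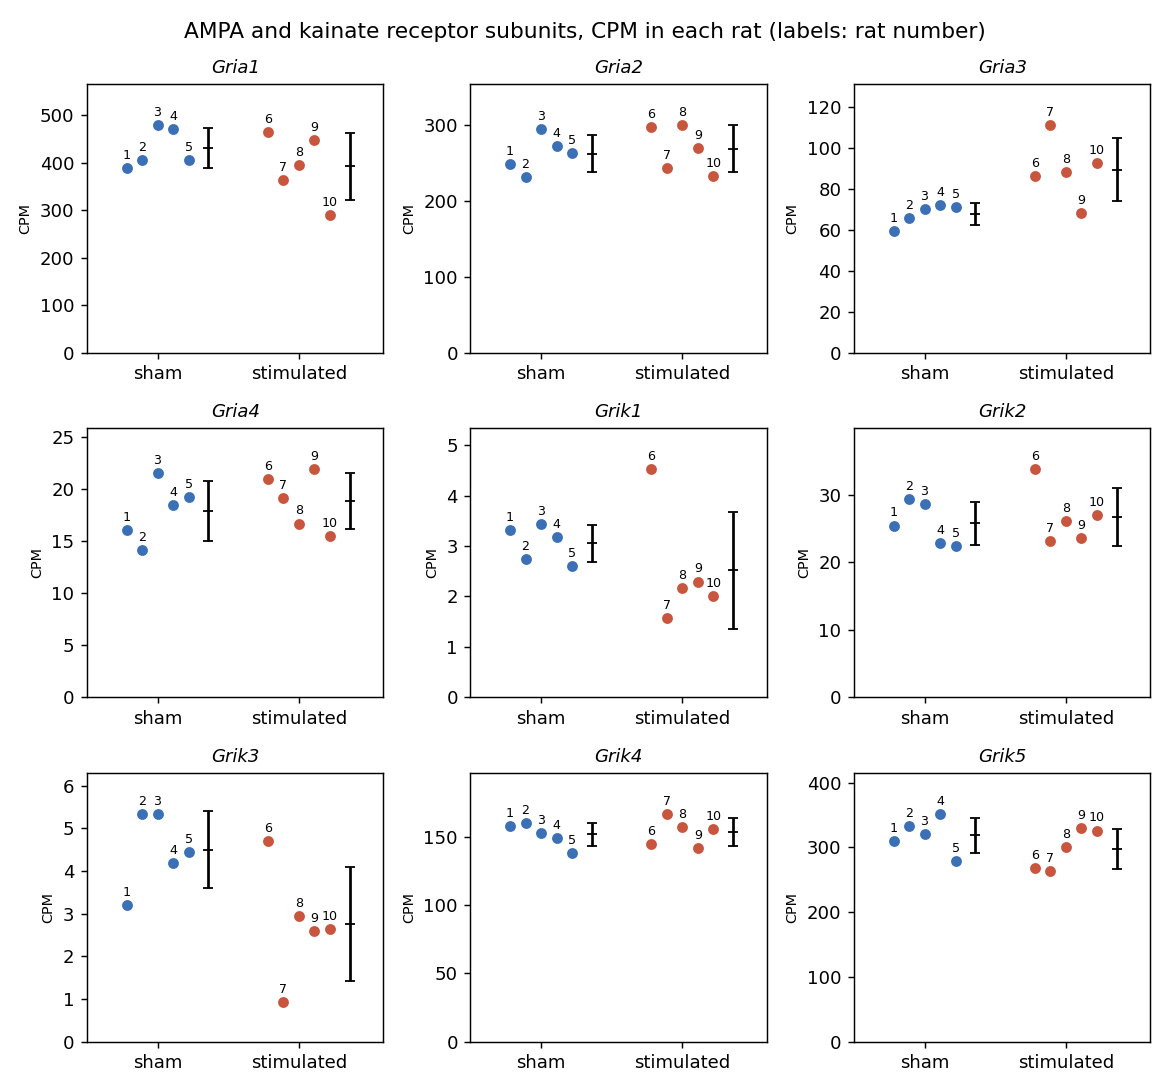
CPM (vertical axes, starting at 0) of each subunit in 5 sham (blue) and 5 stimulated (red) rats, with rat numbers beside the points and bars for the mean ± SD. Gria3 in 4 stimulated rats lies above all sham rats, Grik3 in 4 stimulated rats lies below all sham rats, and the groups overlap for every subunit.

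Among the AMPA receptor subunits, 3 had a fold change above 0 and 1 below, with a median log2 fold change of 0.05. Gria3 stood apart from the other subunits in its unadjusted p. Its fold was 1.32 in the row used and its direction was the same in all rows, tools and subsets of rats tried. Gria1, Grik1, Grik3 and Grik5 also kept their direction throughout.

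Gria1 encodes the subunit (GluA1) whose phosphorylation and synaptic insertion are tied to long-term potentiation. Its row (NM_031608) had 389, 405, 479.7, 471 and 405 CPM in sham rats 1 to 5 and 465, 363, 396, 447 and 289 CPM in stimulated rats 6 to 10. Rats 7 and 10 lay below all sham rats and the others were inside the sham range. The means were 429.8 ± 42.1 and 392 ± 70.4 CPM (mean ± SD, 5 rats per group). The log2 fold change of -0.13 (SE 0.119, 95% interval -0.39 to 0.12) had an adjusted p of 0.737 in edgeR's quasi-likelihood test. It was -0.041 without rat 10 and -0.21 without rat 6.

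Gria2 encodes GluA2, the subunit that sets calcium permeability. Its row (NM_017261) had 248, 231, 295, 272 and 263 CPM in the sham rats and 297, 243, 300.1, 269.7 and 232 CPM in the stimulated rats. Rats 6 and 8 were slightly above the highest sham rat and the remaining values lay within the sham range. With means of 262 ± 24.2 and 268 ± 30.8 CPM (mean ± SD, 5 rats per group), the log2 fold change was 0.04 (95% interval -0.17 to 0.24, adjusted p = 0.926 in edgeR's quasi-likelihood test). An interval of this width does not show that the levels were equal.

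Gria3 encodes GluA3, which pairs with GluA2 in a second large population of AMPA receptors. Its row (NM_032990) had 59.4, 65.9, 70.3, 72.0 and 70.9 CPM in the sham rats. In the stimulated rats it had 86.4, 111, 87.9, 68.1 and 92.6 CPM. Rats 6, 7, 8 and 10 were above every sham rat and rat 9 was inside the sham range, so the groups overlapped through 1 rat.

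The means of Gria3 were 67.7 ± 5.18 CPM without stimulation and 89.2 ± 15.4 CPM after it (mean ± SD, 5 rats per group). The log2 fold change was 0.40 (SE 0.117, 95% interval 0.15 to 0.65), with an unadjusted p of 0.00427 and an adjusted p of 0.390 in edgeR's quasi-likelihood test. The second Gria3 row (NM_001112742) had 56.9 to 72.1 CPM in the sham rats and 73.9 to 112 CPM in the stimulated rats, and there the groups did not overlap. Its log2 fold change was 0.45 (SE 0.115, adjusted p = 0.376 in edgeR's quasi-likelihood test). These rows share most of their sequence and are not independent measurements.

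Gria3 was followed through each setting. With any 1 rat left out its log2 fold change stayed between 0.29 (without rat 7) and 0.48 (without rat 9), with an unadjusted p under 0.05 in 10 of 10 such fits, and no adjusted p under 0.05. The lowest adjusted p of any setting was 0.149 (DESeq2). The immediate early gene Fos, induced in neurons by recent activity, had 3.26 to 5.32 CPM in sham rats and 5.61, 106, 5.24, 50.3 and 61.7 CPM in rats 6 to 10. Both Gria3 rows were above the sham range in rats 7 and 10, where Fos was high. They were also above it in rats 6 and 8, where Fos was close to its sham range. In rat 9, where Fos was high, the row used was within the sham range and the second row (73.9 CPM) was just above it. The part of recent activity in the Gria3 values was not tested.

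Gria4 encodes GluA4, which is prominent in interneurons and in the developing hippocampus. Its row (NM_001113185) had 16.1, 14.1, 21.6, 18.5 and 19.2 CPM in the sham rats and 20.9, 19.1, 16.7, 21.9 and 15.5 CPM in the stimulated rats. The groups overlapped, with only rat 9 above the highest sham rat. The log2 fold change was 0.07 (SE 0.139, 95% interval -0.23 to 0.37, adjusted p = 0.900 in edgeR's quasi-likelihood test). The remaining Gria4 rows had log2 fold changes of -0.05 and -0.11, and the summed rows gave -0.02, so no direction is given for this gene.

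Among the kainate receptor subunits, 2 had a fold change above 0 and 3 below, with a median log2 fold change of -0.10. In the rows used, Grik1 and Grik3 lay below all sham rats in 4 of 5 stimulated rats, and rat 6 did not follow in either gene. Grik2, Grik4 and Grik5 had means that differed by less than the spread between rats.

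Grik1 encodes GluK1, which is found largely in interneurons in the hippocampus. Its row (NM_001111114) had 3.32, 2.75, 3.43, 3.18 and 2.60 CPM in the sham rats and 4.52, 1.58, 2.17, 2.30 and 2.01 CPM in the stimulated rats. Rats 7 to 10 lay below all sham rats and rat 6 lay above all of them. These values rest on 34 to 100 reads per rat. The means were 3.05 ± 0.363 and 2.52 ± 1.15 CPM (mean ± SD, 5 rats per group), and the log2 fold change of -0.27 (SE 0.264, 95% interval -0.84 to 0.29) had an adjusted p of 0.762 in edgeR's quasi-likelihood test. Single rats moved this value in both directions. In edgeR's quasi-likelihood test the log2 fold change was -0.15 without rat 7 (unadjusted p = 0.558) and -0.62 without rat 6 (unadjusted p = 0.0108, adjusted p = 0.213). In each of the other Grik1 rows (NM_017241 and NM_001111117), 3 stimulated rats lay below all sham rats and rat 9 was inside the sham range. Their log2 fold changes were -0.39 and -0.47, and the summed rows gave -0.38 (unadjusted p = 0.138 in edgeR's quasi-likelihood test).

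Grik2 encodes GluK2, the principal low-affinity subunit of CA3 and granule cells. Its row (NM_019309) had 25.5, 29.5, 28.7, 22.9 and 22.4 CPM in the sham rats and 33.8, 23.2, 26.1, 23.6 and 27.0 CPM in the stimulated rats. Only rat 6 was outside the sham range, above it. The means were 25.8 ± 3.23 and 26.7 ± 4.29 CPM (mean ± SD, 5 rats per group). Its log2 fold change was 0.05 (95% interval -0.22 to 0.33, adjusted p = 0.918 in edgeR's quasi-likelihood test).

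Grik3 encodes GluK3, a low-affinity subunit with presynaptic roles. Its row (NM_001112716) had 3.20, 5.34, 5.33, 4.18 and 4.44 CPM in the sham rats and 4.71, 0.929, 2.94, 2.60 and 2.63 CPM in the stimulated rats. Rats 7 to 10 lay below every sham rat, rat 7 farthest, and rat 6 lay inside the sham range. Rat 7 had 20 reads, with an exact 95% Poisson interval of 12.2 to 30.9 reads or 0.567 to 1.43 CPM, and the other rats had 46 to 106 reads. Such intervals cover counting error only.

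The means of Grik3 were 4.5 ± 0.895 CPM without stimulation and 2.76 ± 1.34 CPM after it (mean ± SD, 5 rats per group). The log2 fold change was -0.70 (SE 0.315, 95% interval -1.38 to -0.02), with an unadjusted p of 0.0437 and an adjusted p of 0.489 in edgeR's quasi-likelihood test. In the same test the second Grik3 row (NM_181373) gave -0.97 (SE 0.331, unadjusted p = 0.0109, adjusted p = 0.409). The summed rows gave -0.83 (SE 0.305, unadjusted p = 0.0167, adjusted p = 0.424), also in that test.

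In the row used, the unadjusted call for Grik3 depended on single rats. It was lost in 8 of 10 fits with 1 rat left out, where the unadjusted p was 0.0838, 0.0928, 0.0576 and 0.0643 without sham rats 2 to 5. It was 0.0538, 0.0527, 0.0721 and 0.0708 without stimulated rats 7 to 10. It was kept without sham rat 1 (0.0310) and without stimulated rat 6 (0.00517). The log2 fold change ran from -1.0 without rat 6 to -0.48 without rat 7.

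**Figure D2:**
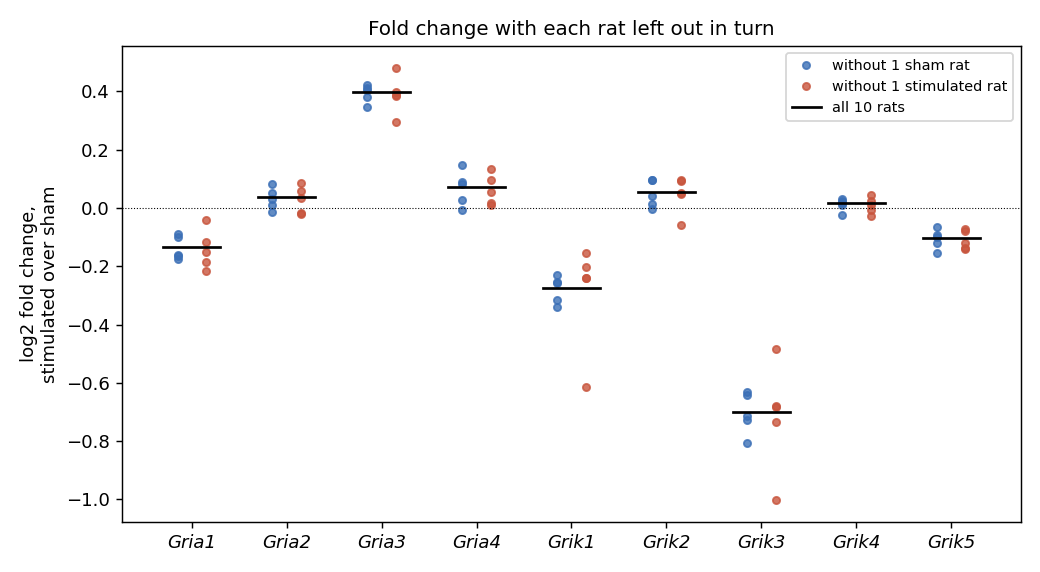
Log2 fold change (vertical axis, stimulated over sham) of each subunit with 1 sham rat (blue) or 1 stimulated rat (red) left out, and with all 10 rats (black line). Gria3 stays between 0.29 and 0.48 and Grik3 between -1.0 and -0.48, while Gria2, Gria4, Grik2 and Grik4 cross 0.

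The start region of Grik3 is shown with that of Grik5 because only these subunits, of the 6 found in the RefSeq promoter table of build GRCr8 (Gria4 and Grik1 to Grik5), hold the GC box GGGCGG, the letters bound by Sp1-type factors, on either strand between 250 bases before and 50 bases after the start. These 2 of 6 subunits compare with 33.1% of 33469 promoters that hold at least 1 match, so the share is near the background. Grik3 held 6 matches and Grik5 held 2. The windows below are 30 bases long, read 5′ to 3′ on the gene's strand, with the GC box in capitals.
Grik3, chr5:143052355-143052384, plus strand, 87 to 58 bases before the start: cccgtGGGCGGcagccgaagcgGGGCGGgc
Grik5, chr1:89795041-89795070, minus strand, 161 to 132 bases before the start: aggccggcccggctaggggaggGGGCGGgg

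The start region of Grik3 had a GC content of 82.3%, at percentile 99.6 of all promoters, and that of Grik5 69%, against a median of 51.7%. The AP-1 letters TGANTCA, in 7.33% of promoters, and the cAMP response element TGACGTCA, in 1.83%, were in 0 of 6 subunit windows. These matches describe the letters and were not tested as sites. Gria1, Gria2 and Gria3 were not in the table.

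Grik4 encodes GluK4, a high-affinity subunit concentrated in CA3 and granule cells. Its row (NM_012572) had 158, 160.3, 153, 149 and 138 CPM in the sham rats and 145, 167, 157, 142 and 156 CPM in the stimulated rats. Only rat 7 was outside the sham range, above it. With means of 152 ± 8.57 and 153 ± 10.1 CPM (mean ± SD, 5 rats per group), Grik4 had the narrowest interval of the 9 subunits, a log2 fold change of 0.02 (95% interval -0.15 to 0.18, adjusted p = 0.960 in edgeR's quasi-likelihood test).

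Grik5 encodes GluK5, the broadly expressed high-affinity subunit. Its row (NM_031508) had 309.9, 333, 321, 352 and 279.7 CPM in the sham rats and 268, 263, 300.2, 329.9 and 326 CPM in the stimulated rats. Rats 6 and 7 lay below all sham rats. The means were 319 ± 27.0 and 298 ± 31.2 CPM (mean ± SD, 5 rats per group). Stimulated over sham, this was -0.10 on the log2 scale (SE 0.0899, adjusted p = 0.734 in edgeR's quasi-likelihood test).

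**Figure D3:**
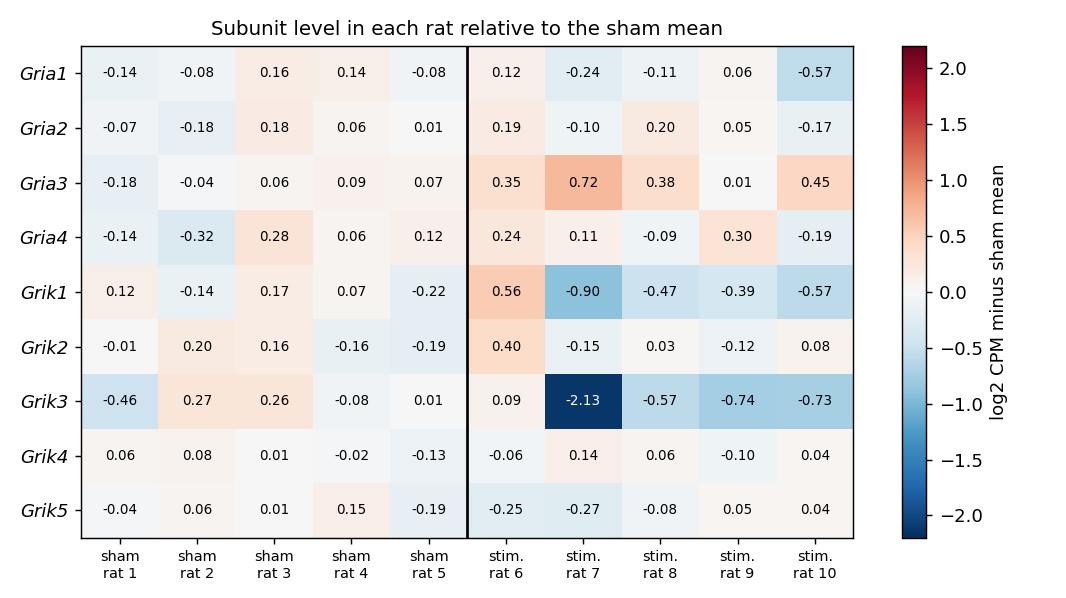
Log2 CPM of each subunit in each rat minus the mean of the sham rats, written in the cells and colored from blue (lower) to red (higher). Rat 7 holds both the highest Gria3 value (0.72) and the lowest Grik3 value (-2.13), and rat 6 holds the only Grik1 value above the sham rats (0.56).

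Of the genes with several rows, Gria4 was within binomial error of an even split in the fewest rats. Such counts depend on depth, since fewer reads give a wider error. The pair of Gria2 rows each took 49.3% to 50.7% of the gene's reads in every rat, within binomial error of an even split in 10 of 10 rats. The 3 Grik1 rows took 27.5% to 39.0%, within error of an even split in 10 of 10 rats, on 91 to 265 reads per rat. Grik3 rows took 37.8% to 62.2%, within error in 8 of 10 rats, on 41 to 200 reads per rat. Gria3 rows took 46.5% to 53.5%, within error of an even split in 7 of 10 rats, and the Gria4 row used took 35.6% to 45.2%, within error of an even split over 3 rows in only 2 of 10 rats. The other Gria4 rows were within it in 4 and 5 of 10 rats. How reads shared between rows were assigned is not stated, so these shares are not read as levels of flip or flop forms.

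**Figure D4:**
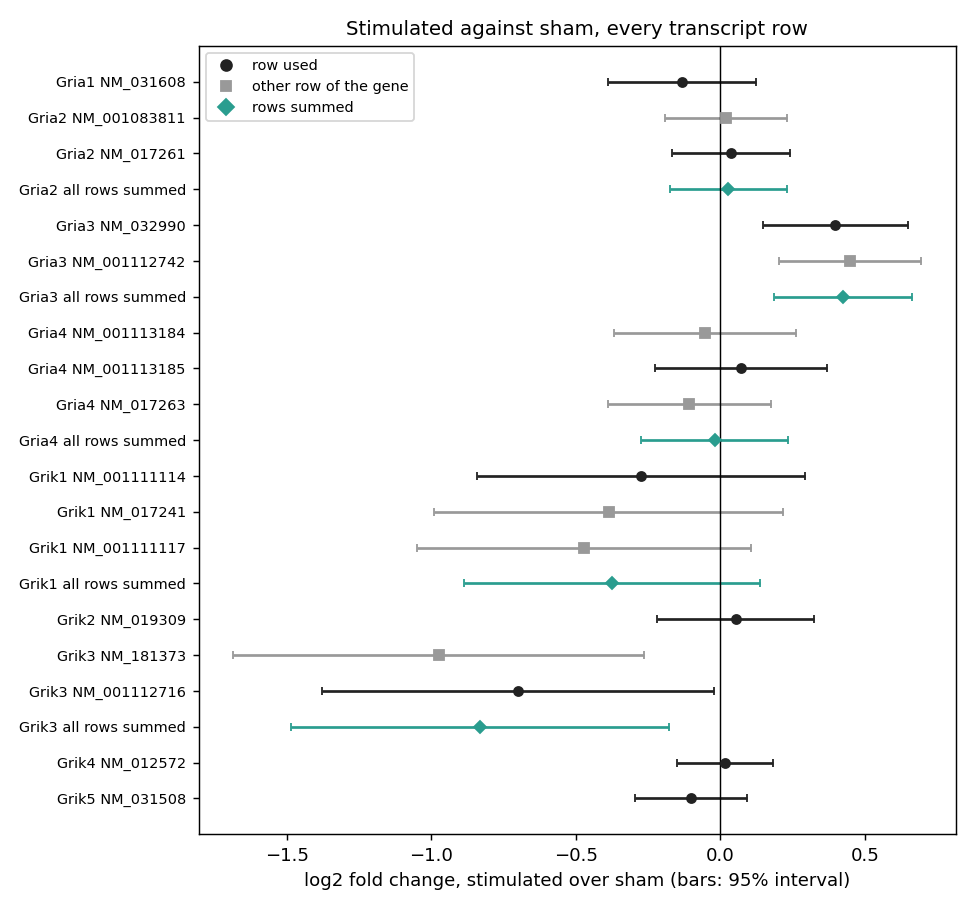
Log2 fold change of stimulated over sham rats with 95% intervals (horizontal axis) for each of the 16 rows, with the row used per gene in black, the other rows in grey and the summed rows in green. The intervals of both Gria3 rows lie above 0 and those of both Grik3 rows lie below 0 before correction, and those of all other subunits include 0.

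Ratios within a rat do not depend on the scaling between libraries. The log2 ratio of Gria1 to Gria2 was 0.65, 0.81, 0.70, 0.79 and 0.62 in the sham rats and 0.65, 0.58, 0.40, 0.73 and 0.32 in the stimulated rats. Rats 7, 8 and 10 lay below all sham rats. The difference of -0.18 (means 0.72 ± 0.085 and 0.53 ± 0.172, SD) gave p = 0.0714 in a two-sided exact permutation test over 252 assignments, adjusted to 0.143 over both ratios, where the smallest p possible was 0.00794. With the rows of each gene summed, the difference was -0.17 (p = 0.103 in the same exact permutation test). The Gria2 row used held only 49.3% to 50.6% of the gene's reads. The ratio is therefore compared between rats and not read as the balance of the genes.

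The log2 ratio of Grik4 to Grik5 was -0.97, -1.05, -1.07, -1.24 and -1.01 in the sham rats and -0.89, -0.66, -0.93, -1.22 and -1.06 in the stimulated rats. Rats 6, 7 and 8 lay above all sham rats and the groups overlapped. The difference of 0.12 gave p = 0.286 in the same exact permutation test (adjusted p = 0.286).

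The subunits were followed by the genes whose levels varied most like theirs over the 10 rats, among 9608 rows with a symbol and a mean count of at least 100. These correlations are a description, since the same libraries give every value. Gria3 was most like Cdh9 (Pearson r = 0.931) and Podxl (0.916), and Grik3 was most like Tppp (0.967) and Dusp15 (0.958). Gria1 was most like Cpd (0.976) and Gda (0.957), Gria2 like Bmt2 (0.905) and Ncor1 (0.902), and Gria4 like Copg2 (0.947) and Rnf34 (0.922). Grik1 was most like Kcnt2 (0.936) and Pdcd4 (0.922), Grik2 like Itsn1 (0.878) and Mical3 (0.832), Grik4 like Mrgbp (0.908) and Septin11 (0.879), and Grik5 like Fzd2 (0.903) and Adgrb2 (0.901).

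Between subunits, the highest correlation over the 10 rats was that of Grik1 with Grik3 (r = 0.789), and Gria3 had its most negative one with Grik3 (r = -0.672). Gria1 and Gria2 had r = 0.686. All of these include the difference between the groups. Rat 7 held the highest Gria3, the lowest Grik1 and the lowest Grik3, the last on 20 reads. How far the correlations rest on this rat was not tested.

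The receptor partners were examined as 8 lists with 68 tested genes. Of these, 0 passed an adjusted p of 0.05 in edgeR's quasi-likelihood test, and 9 (13.2%) had an unadjusted p under 0.05, 6 higher and 3 lower, against 9.86% of all rows. The median log2 fold change was -0.06, with 26 genes above 0 and 42 below. edgeR's likelihood ratio test and edgeR's exact test each called 1 partner, Nptx2, after adjustment, and DESeq2 and limma-voom called 0.

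None of the 13 AMPA auxiliary subunits, which set trafficking and gating of the receptor, had an unadjusted p under 0.05, and their log2 fold changes ran from -0.38 to 0.34. Cacng8, the main hippocampal TARP, had 113 ± 12.7 CPM without and 111 ± 11.3 CPM after stimulation. Likewise, 0 of 6 kainate partners did so, and Neto1, an auxiliary subunit of kainate receptors, had 138 ± 6.67 and 138 ± 20.6 CPM. Of 5 genes for AMPA receptor assembly in the endoplasmic reticulum, 1 did, against 9.86% of all rows. This was Abhd6, which holds back surface delivery of AMPA receptors, with 72.3 ± 5.34 and 61.4 ± 8.67 CPM (log2 fold change -0.24, adjusted p = 0.478 in edgeR's quasi-likelihood test).

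Of 20 scaffold and trafficking genes, 3 had an unadjusted p under 0.05, against 9.86% of all rows. Pick1, which binds GluA2 and drives its internalization, had 34.7 to 36.7 CPM in the sham rats and 28.6 to 32.6 CPM in the stimulated rats, without overlap. Its log2 fold change was -0.23 (SE 0.0831, adjusted p = 0.416 in edgeR's quasi-likelihood test), and fully separated lower values were found in 0.597% of all rows. Dlg4 (PSD-95), the core postsynaptic scaffold, had 613 ± 26.4 and 693 ± 63.6 CPM (log2 fold change 0.18, adjusted p = 0.472). Homer1, a postsynaptic scaffold with an activity-induced short form, had 45.5, 121, 43.6, 109 and 58.2 CPM in rats 6 to 10 against 40.6 to 51.2 CPM in sham rats (adjusted p = 0.411).

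The 8 genes listed as secreted clustering proteins, some of whose products gather AMPA receptors at synapses, had a median log2 fold change of 0.53. At an unadjusted p under 0.05, 4 of them were higher and 0 lower, against 6.7% higher and 3.16% lower over all rows. This list, like the others, was chosen with earlier results of these data known. Nptx2 (Narp), an activity-induced pentraxin, had 41.5 to 52.0 CPM in the sham rats and 47.5, 558, 38.6, 783 and 235 CPM in rats 6 to 10. The log2 fold change was 2.83 (SE 0.661, adjusted p = 0.376 in edgeR's quasi-likelihood test). Olfm2 (1.09), Nrn1 (0.62) and Nptxr (0.43), the last named after its values were seen, had adjusted p values of 0.388, 0.399 and 0.446. For Nptx2, Olfm2 and Nrn1, as for Homer1 and Fos, the high values were in rats 7, 9 and 10.

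**Figure D5:**
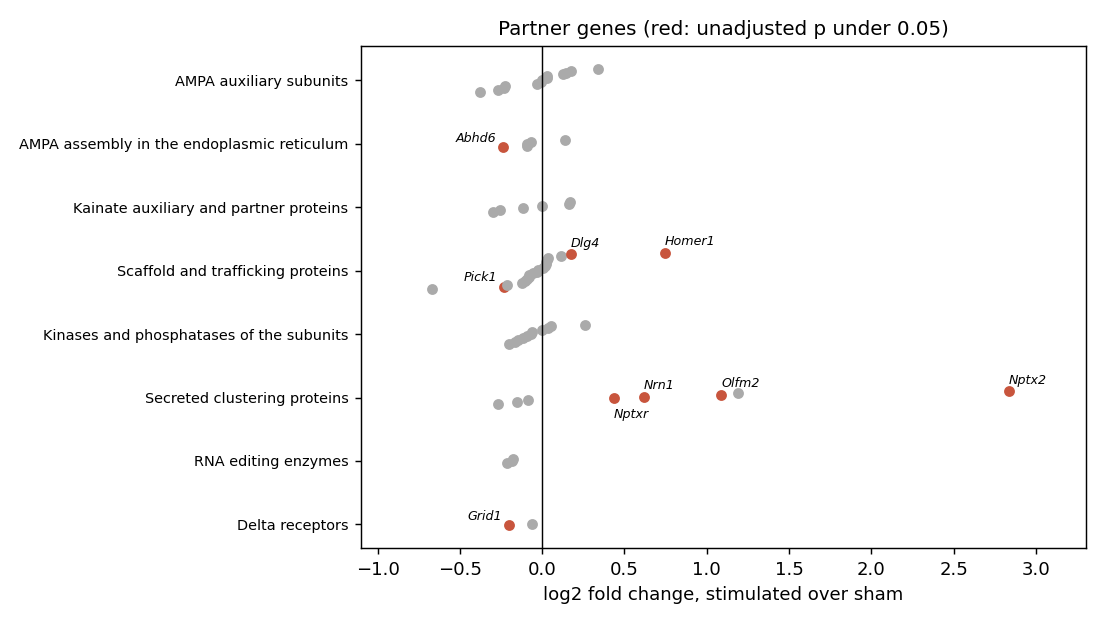
Log2 fold change of stimulated over sham rats (horizontal axis) of the 68 tested partner genes by list, with genes at an unadjusted p under 0.05 in red. The points of most lists lie around 0, and Nptx2 at 2.83 is farthest to the right.

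All 3 RNA editing enzymes had a log2 fold change below 0 (-0.21 to -0.18) and none an unadjusted p under 0.05. Adarb1, which edits the calcium site of Gria2 mRNA, had 53.8 ± 2.31 and 47.6 ± 6.09 CPM, with 4 of 5 stimulated rats below all sham rats (adjusted p = 0.570 in edgeR's quasi-likelihood test). Editing itself cannot be read from counts. Of 11 kinases and phosphatases, 0 had an unadjusted p under 0.05, and Camk2a, whose kinase phosphorylates GluA1, had 1406 ± 109.9 and 1256 ± 147 CPM. Of the pair of delta receptor genes, Grid1 had 42.3 ± 3.34 and 36.8 ± 2.14 CPM (log2 fold change -0.20, adjusted p = 0.480).

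In these bulk samples, fewer cells of a type and less RNA per cell cannot be told apart. The 7 neuronal markers, all tested, summed to 3474 to 3794 CPM in sham and 3333 to 3928 CPM after stimulation. The 5 tested of 8 CA3 markers summed to 1702 to 1919 and 1780.5 to 2657 CPM. The 4 tested of 7 dentate granule cell markers summed to 319 to 418 and 255 to 519 CPM. Markers listed for both regions named in the protocol were thus detected, but the sums do not show which regions the piece held. Coch and Iyd (CA3) and Lct and Tdo2 (dentate) had a count of 0 in at least 1 rat. The 9 interneuron markers summed to 519 to 598 and 469 to 701 CPM, and the members of the list did not move together. Npy, a neuropeptide, had 5.53 to 11.2 CPM in the sham rats and 192, 80.2 and 107 CPM in rats 7, 9 and 10, while Gad1, Pvalb and Lhx6 had log2 fold changes of -0.21, -0.24 and -0.23, each with an unadjusted p above 0.05.

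Single markers that moved with subunit values are given here, chosen after their values were seen. Rat 6, with the highest Grik1, had the highest value of each of the CA1 markers Wfs1 (43.9 CPM), Fibcd1 (171 CPM), Mpped1 (127 CPM) and Pou3f1 (11.4 CPM). Rat 10, with the lowest Gria1, had the lowest Fibcd1 (28.4 CPM, against 85.0 to 164 CPM in sham) and Pou3f1 (1.96 CPM, against 4.54 to 9.64 CPM). None of these 4 markers had an unadjusted p under 0.05 between the groups.

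Rat 7, with the highest Gria3 and the lowest Grik3, also had the highest summed CA3 markers (2657 CPM) and astrocyte markers (7861 CPM, against 2512 to 3092 CPM in sham). Each of these sums was carried mainly by 1 gene, Chgb (1519 CPM, against 694 to 907 CPM in sham) and Gfap (6469 CPM, against 1327 to 1927 CPM). Of the other CA3 markers, Nrip3 (549.5 CPM) and Cpne4 (334.9 CPM) were also above all sham rats in rat 7. Bok and Spock1 were within the sham range. Of the other astrocyte markers, Aqp4 (162 CPM), Slc1a3 (749 CPM) and Slc1a2 (193 CPM) were above all sham rats in rat 7. Aldh1l1 (16.4 CPM) and Gja1 (271 CPM) were below all sham rats. Rat 7 had the lowest sums for the 6 oligodendrocyte markers (2045 CPM, against 2532 to 3655 CPM in sham) and the 5 precursor markers (193 CPM, below all sham rats). All 6 oligodendrocyte markers had a log2 fold change below 0 and none an unadjusted p under 0.05. In contrast, 4 of 6 astrocyte markers and 4 of 6 endothelial markers were higher at that level, against 6.7% of all rows. Aqp4 (astrocytes) and Pecam1 (endothelium) were higher in all stimulated rats than in any sham rat, which held for 0.695% of all rows. After adjustment in edgeR's quasi-likelihood test 0 markers passed. In rats 9 and 10, where Grik3 was also below all sham rats, the oligodendrocyte markers summed to 3416 and 3398 CPM, within the sham range. The part of these cell types in the subunit values was not tested. Microglial markers summed to 286 to 363 and 312 to 461 CPM, endothelial markers to 127 to 150.3 and 144 to 276 CPM, and choroid plexus markers, with Kl and Otx2 at 0 in at least 1 rat, to 3.18 to 16.8 and 6.20 to 34.2 CPM.

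Libraries held 13552309 to 24086059 aligned reads, and ribosomal RNA took 1.82% to 12.2% of them. Unaligned reads were 32.8% to 37.1% in sham and 32.0% to 45.1% in stimulated rats (two-sided exact permutation p = 0.127). Among the sham rats, rat 2 had the lowest mean correlation with its group (0.972, against 0.981 to 0.983), while the stimulated rats had 0.961 to 0.968, lowest in rat 7. Without sham rat 2 the log2 fold change of Grik3 was -0.64.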

How the data were processed

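Poly-A RNA from 5 sham and 5 stimulated rats was sequenced on a Genome Analyzer IIx. Per the labels, reads were aligned with BWA to rn4. The authors deposited raw whole-number counts per RefSeq transcript row, how shared reads were assigned is not given in the sources used here, and the row of unaligned reads was left out (32.0% to 45.1% per rat). The study's methods count fewer stimulated rats for mRNA than the labels, and all 10 labelled libraries were used. Symbols came from the RefSeq gene table and matched 57.7% of tested rows.

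Rows with a summed count at or above the 30th percentile (46) were kept, as in the study's methods. edgeR 4.0.16 (R 4.3.3) gave trimmed mean factors, CPM and the quasi-likelihood test with Benjamini-Hochberg adjustment over 22447 rows, with a prior count of 2 for log2 CPM. The script was tested on simulated data. Within-rat log2 ratios (0.5 counts added) were compared by exact permutation. DESeq2 1.42.0, limma-voom 3.58.1, edgeR's likelihood ratio and exact tests, other factors, filters, summed rows and leaving out each rat were alternatives. The labels do not say whether the rats were processed in batches. All 9 subunits are named with every rat's value, with partners at an unadjusted p under 0.05 (up to the 3 lowest per list), the genes Cacng8, Neto1, Adarb1, Camk2a, Dlg4, Nptx2 and Fos, and the 2 genes most alike each subunit. The subunits and lists were chosen with earlier results of these data known. Depth was 13552309 to 24086059 aligned reads per rat. The summed level of 1 marker list is not reported here.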

Additional observations from a re-analysis of the deposited data

Results flagged for a closer look

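Grik1 in stimulated rat 6 (4.52 CPM) stood far from the other stimulated rats (1.58 to 2.30 CPM), with a gap to the nearest of 0.757 of the group's range, above the critical value of 0.71 for 5 values. Of 22 groups of values examined this way, 1.1 would be expected to exceed that value by chance, and 1 did. The other Grik1 rows also had their highest stimulated value in rat 6, at 3.98 and 3.48 CPM.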

How the results depend on the processing

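The count of subunits with an adjusted p under 0.05 was 0 under every alternative run. Over all rows it was 0 except for 119 (likelihood ratio test), 90 (exact test) and 33 (DESeq2), and over the partners 0 except for 1 (likelihood ratio test) and 1 (exact test). Subunits with an unadjusted p under 0.05 numbered 1 with library size alone, where Grik3 was no longer among them, and 2 under the other settings that kept all rats. With each rat left out in turn they numbered 1 (without any of sham rats 2 to 5 or stimulated rats 7 to 10) to 3 (without rat 6). The partners numbered 6 (without sham rat 1) to 15 (without rat 8; 14 without rat 6), and all lower rows 536 (without sham rat 4) to 1287 (without rat 6; 1241 without rat 8). Summing rows reversed Gria4 to -0.019. Leaving out rats moved the log2 fold change across 0 for Gria2 (-0.022 to 0.085), Gria4 (-0.0076 to 0.15), Grik2 (-0.058 to 0.10) and Grik4 (-0.026 to 0.044), and the cause was not tested. The Gria1 to Gria2 ratio differed by -0.23 to -0.13, and passed only without stimulated rat 9 (exact permutation p = 0.0159). No paired analysis was possible because the rats are numbered 1 to 10 and share no number between the groups. The rows used rest on 34 to 100 reads per rat for Grik1 and 20 to 106 for Grik3, where the stimulated rats had coefficients of variation of 45.9% and 48.6%. Gria1 ran from -0.21 (without rat 6) to -0.041 (without rat 10) and Grik1 from -0.62 (without rat 6) to -0.15 (without rat 7).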
